A study of Mus musculus with 9 samples.

Results

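The motile cilia genes described here are 41 genes of the beating cilium and of the transcription factors that build it, chosen as a list of symbols for their known function, and read through every array probe whose RefSeq transcript carries a member's symbol. Of the 41 genes, 38 had at least 1 such probe. Dnah3, Dnah12 and Ccdc40 were not matched to a probe and were not analysed here, and the single probe of Spag6 was not well above background on any of the 9 arrays. The other 37 members were among 16843 genes tested in all, and each of the 37 was well above background on every array. Dnai1 and Dnai2 are named Dnaic1 and Dnaic2 in the annotation used.

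Motile cilia cover the multiciliated cells of the conducting airways and move mucus along them. Their core, the axoneme, is a ring of microtubule doublets around a central pair. Dynein arms slide the doublets against each other, and the molecular ruler sets where the arms attach. Nexin links, radial spokes and the central pair control the beat. A multiciliated cell switches on most of these genes together, through multicilin (Mcidas), Foxj1 and factors of the RFX family, so their transcripts in whole lung come largely from that cell type. In bulk tissue, fewer ciliated cells and less RNA per ciliated cell cannot be told apart.

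RNA was taken from whole lungs of mice with floxed alleles of Terf1 (TRF1flox/flox), the gene of the telomere-binding protein TRF1, and hybridised to single-colour Agilent arrays, 1 array per lung. Every mouse, controls included, was given tamoxifen (250 mg/kg each week), starting when 8 weeks old. The control group were TRF1flox/flox littermates without cre, 11 months old after 9 months of tamoxifen (n = 3). The 3-month cre group (SPC-cre TRF1flox/flox, n = 3) was 5 months old after 3 months of tamoxifen, and the 9-month cre group (same genotype, n = 3) was 11 months old after 9 months. The SPC-cre transgene carries the surfactant protein C promoter, whose gene encodes a product of alveolar type 2 cells, so ciliated cells are not the type named by the driver. The 3-month cre group also differs from the controls in age and in length of treatment, which the design cannot tell apart from the genotype. The comparisons ask what differs early and late in the disease that follows TRF1 loss.

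Levels are log2 processed signal relative to the 75th percentile of the same array, so 0 is that percentile, and a difference of 1 is a doubling. The level of 1 probe is not comparable with that of another, so only arrays are compared within a gene. Between 64.4% and 73.7% of spots were well above background per array, and the median local background was 28 to 35 intensity units. Surfactant protein C, the defining product of alveolar type 2 cells, lay between 7.89 and 8.60 in all 9 lungs. Terf1, read in whole lung by 1 probe that was not placed against the floxed part here, was at -0.37, -0.05 and 0.20 in the controls, at -0.58, -0.68 and -0.62 in 3-month cre lungs and at -0.41, -0.97 and -0.39 in 9-month cre lungs. Its log2 fold changes against the controls were -0.55 ± 0.19 (SE; adjusted p = 0.19) and -0.52 ± 0.19 (adjusted p = 0.131).

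A single library stood apart for the ciliary genes. Replicate 3 of the 9-month cre group had the lowest level of its group for 37 of the 37 members, where 37.6% of all genes had their group's lowest level there, and the lowest level of all 9 arrays for 26 of 37, where 18.9% of all genes did. Replicate 1 of the same group had the highest level of all 9 arrays for 20 of 37 (17.6% of all genes). Replicate 3 had 70.1% of its spots well above background, within the range of the other arrays. Over all genes it was also the array least like the others. Its mean Pearson's r with all other arrays was 0.969, against 0.975 to 0.981 for the rest. Leaving it out moves most 9-month values, and its effect is given beside the results. The array was singled out by the values of these same genes. Calls, adjusted p and separations given without it therefore describe its weight and are not a separate test.

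RFX factors bind the X-box, an inverted repeat whose arm holds the letters GTTGCC. The letters were looked for on both strands of a window from 250 bases before to 50 bases after an annotated start site of each gene. The windows were RefSeq promoter sequences of the GRCm38.p6 build. Of the 34 members with a window, 18 (52.9%) held GTTGCC, against 14.1% of the 27025 genes with a window. Of 70 other axoneme genes with a window, 34 (48.6%) held it, of 31 genes of intraflagellar transport and the BBSome 13 (41.9%) did, and of 11 club cell genes none did (a count of 0). In all, 13 spellings were counted, several of which overlap, and this one was chosen for printing after the counts were seen, so the share is a description. The forkhead letters TGTTTAC, of the kind read by Foxj1, were in 2 of 34 (5.88%) and 4.05% of all genes, and CCAAT was in 16 of 34 (47.1%) and 41.1%. The stretches below are those of the 5 members that followed the other members most closely over the arrays among the 15 with a match before the start, each 100 bases on the gene's own strand, with GTTGCC or its reverse complement GGCAAC in capitals.
Dynlrb2: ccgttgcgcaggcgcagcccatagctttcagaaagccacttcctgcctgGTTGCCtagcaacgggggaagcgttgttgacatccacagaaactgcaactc
Cdhr3: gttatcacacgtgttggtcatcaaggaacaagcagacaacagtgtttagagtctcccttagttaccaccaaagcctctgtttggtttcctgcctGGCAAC
Drc1: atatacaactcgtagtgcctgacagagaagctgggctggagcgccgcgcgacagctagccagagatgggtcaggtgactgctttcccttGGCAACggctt
Ccdc153: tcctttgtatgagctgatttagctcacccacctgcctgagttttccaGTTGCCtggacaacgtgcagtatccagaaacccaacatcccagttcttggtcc
Hydin: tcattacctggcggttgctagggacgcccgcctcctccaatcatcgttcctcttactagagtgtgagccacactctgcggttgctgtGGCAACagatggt

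They lie at chr8:116504915-116505014 (plus strand), chr12:33092876-33092975 (minus strand), chr5:30281293-30281392 (plus strand), chr9:44240478-44240577 (plus strand) and chr8:110266877-110266976 (plus strand), in the order printed. The match begins 51 bases before the start site used for Dynlrb2, 6 before that for Cdhr3, 11 before that for Drc1, 152 before that for Ccdc153 and 13 before that for Hydin. In Cdhr3, Drc1 and Hydin it stands on the strand opposite to the gene. The start site used need not be the outer end of the gene's annotated span. For Drc1 (span from 30281335) and Cdhr3 (span up to 33092901) the match lies inside the span. For Hydin (span from 110266968) it lies across the edge. A match of letters is not a shown binding site.

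In late TRF1-deleted lungs most ciliary genes were higher than in the controls on 2 arrays and lower on the third, and no member passed the test. The median log2 fold change of the 37 members, 9-month cre against control, was 0.26, against 0.024 over all genes tested, with 30 members above 0 and 7 below. Members ranged from -0.46 (Dnah5) to 0.74 (Dnah2). For 12 members several probes passed the filter, and for 6 of these the probes differed in sign here. The 6 were Cdhr3, Cfap52, Mcidas, Rfx3, Rsph9 and Spag16. The probes differed in sign for 4 of the 12 in 3-month cre against control and for 7 in 9-month against 3-month cre. The count of members called at an adjusted p under 0.05 was 0 higher and 0 lower, in limma with Benjamini-Hochberg adjustment, where 3.65% of all genes were called higher and 2.81% lower. At an unadjusted p under 0.05, 2 members were higher and 0 lower, where 14.8% of all genes were higher and 12.5% lower. For 0 members did all 9-month cre arrays lie above all control arrays, where 17.5% of all genes did, and for 0 did all lie below, where 15% did.

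Without replicate 3 of the 9-month cre group, the same comparison had a median of 0.57 with 35 of 37 members above 0. In that fit 3.84% of all genes were called higher, and 9 members were. These were the inner dynein arm chains Dnah2 and Dnah10, the dynein light chain Dynlrb2, the arm assembly factor Zmynd10, the tektin Tekt4, Cfap53, Cfap126, Ccdc113 and Ccdc153. Ccdc153 rose by 0.72 ± 0.12 (SE; adjusted p = 0.0261) and Dnah10 by 0.92 ± 0.16 (adjusted p = 0.0274). With replicate 3 left out, both remaining arrays lay above all controls for 27 of 37 members, where 26% of all genes did. Leaving out any 1 of the 5 other arrays compared gave between 0 and 1 such member, and 0 called members. Without replicate 1 the median was 0.093, and without replicate 2 it was 0.13.

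At 3 months of tamoxifen the ciliary genes of cre lungs were mostly a little above the controls, with little spread among the 3 arrays, and again no member passed the test. The median log2 fold change, 3-month cre against control, was 0.24, against 0.054 over all genes, with 31 members above 0 and 6 below, from -0.19 (Spag17) to 1.38 (Sntn). The count called was 0 higher and 0 lower, where 0.368% of all genes were called higher and 0.0831% lower, and 7 members were higher at an unadjusted p under 0.05 with 0 lower, where 11.6% of all genes were higher and 7.09% lower. For 14 of 37 members (37.8%) all 3-month cre arrays lay above all control arrays, where 19.6% of all genes did, and for 0 did they lie below, where 11.4% did. The 14 were Foxj1, Rfx3, Dnah1, Dynlrb2, Dnaaf3, Spag16, Hydin, Ak7, Cfap52, Cfap53, Cfap126, Ccdc113, Ccdc153 and Cdhr3. The count was 23 without control replicate 2, where 22.8% of all genes did so, and 22 without 3-month cre replicate 3, where 27% did. Leaving out 9-month cre replicate 3, which enters this fit only through the shared spread, led to 2 called members, Cfap126 at 0.60 ± 0.11 (SE; adjusted p = 0.0444) and Ccdc153 at 0.59 ± 0.11 (adjusted p = 0.0476), where 1.42% of all genes were called higher.

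Between 3 and 9 months no member passed the test, and the members' values lay on both sides of 0. The median, 9-month cre against 3-month cre, was -0.047, against -0.028 over all genes, with 17 members above 0 and 20 below, from -1.04 (Dnah1) to 0.61 (Dnah2). The count called was 0 higher and 0 lower, where 1.79% of all genes were called higher and 3.2% lower, and 2 members were lower at an unadjusted p under 0.05 with 0 higher, where 16% of all genes were lower and 12.7% higher. For 3 of 37 members (8.11%), Dnah5, Rsph4a and Sntn, all 9-month arrays lay below all 3-month arrays, where 19% of all genes did, and for 0 did they lie above, where 14.6% did. Without 9-month cre replicate 3 the median turned to 0.27 and 2 members rose, Dnah10 by 0.74 ± 0.16 (SE; adjusted p = 0.0434) and Spag17 by 0.63 ± 0.15 (adjusted p = 0.0495), where 2.64% of all genes were called higher. All 3 comparisons share arrays, the first and second their controls, so their values for a member are not independent.

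**Figure D1:**
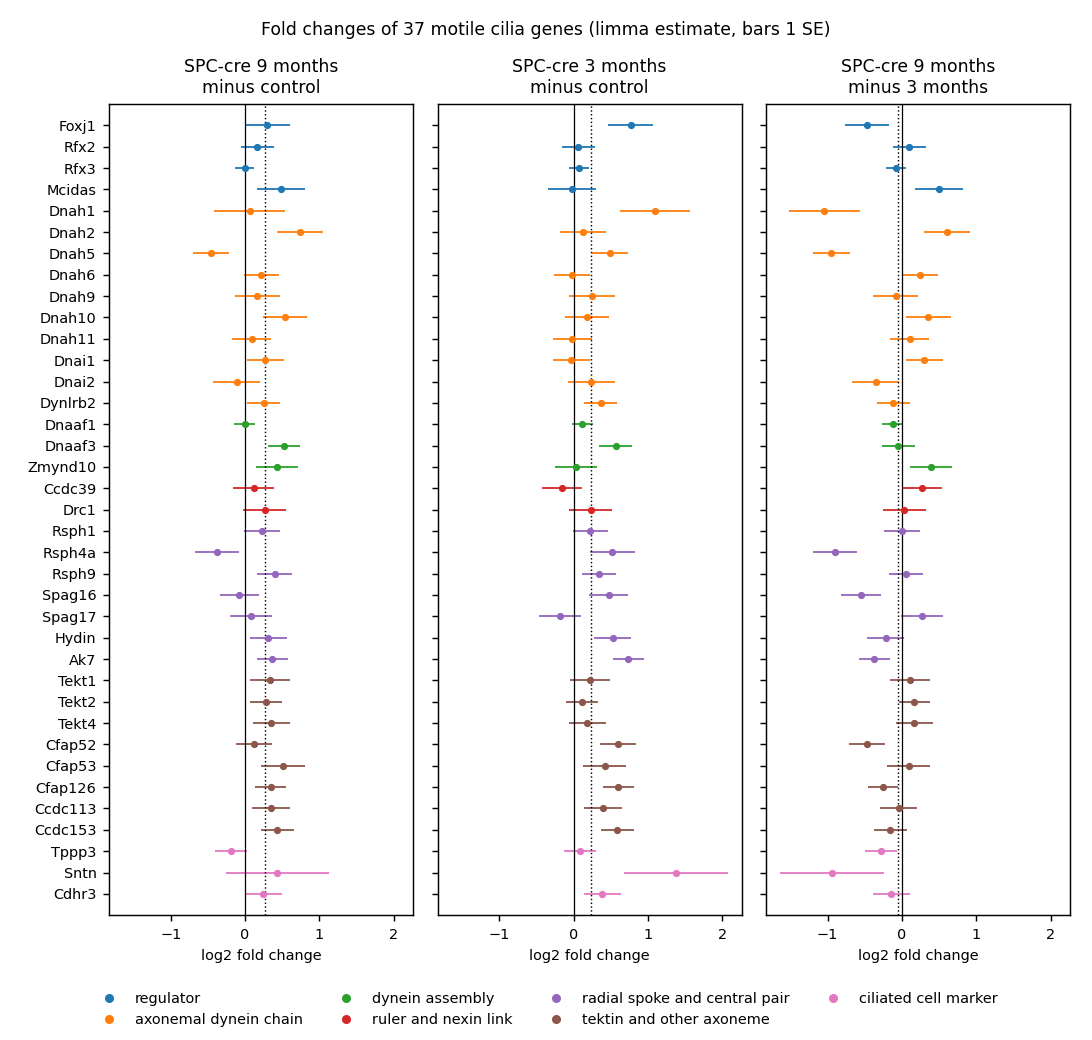
Log2 fold change of each of the 37 measured members in the 3 comparisons, with bars of 1 SE from the limma fit (n = 3 arrays per group), coloured by role. The solid line is 0 and the dotted line the median of the members (0.26, 0.24 and -0.047), and most points of the first and second panels lie right of 0.

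The groups were also unlike in slide and sex. Slide 1 carried 3-month cre replicate 1 beside the 3 controls, and the other 5 arrays were on slide 2. For 9-month cre against control no slide holds both groups, so it has no within-slide value. With slide as a term, which the 3-month group on both slides allows, its median was 0.27 with 32 of 37 members above 0. In the same fit the median of 3-month cre against control was 0.38, the same as within slide 1, where a lone 3-month array is assumed to vary like the other arrays. Within slide 2 the median of 9-month against 3-month cre was -0.0024. Sex, read from Xist and Y-linked probes since the labels do not give it, was male for all controls, and female, male and female for replicates 1 to 3 of the 3-month group and male, female and female for those of the 9-month group. With sex as a term the medians against the controls were 0.52 at 3 months, with 37 of 37 members above 0, and 0.51 at 9 months, and 0 members were called.

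Among the regulators, Foxj1 stood highest above the controls at 3 months. Foxj1, the forkhead factor that switches on the motile ciliary genes, was at 1.89, 2.71 and 2.38 in the controls, at 3.19, 3.15 and 2.93 in 3-month cre lungs and at 3.21, 2.61 and 2.06 in 9-month cre lungs. Every 3-month cre array was above every control, while the 9-month cre arrays spanned from the level of the 3-month lungs down into the control range. The log2 fold change was 0.77 ± 0.30 (SE) for 3-month cre against control (adjusted p = 0.223), 0.30 ± 0.30 for 9-month cre against control (adjusted p = 0.54) and -0.47 ± 0.30 for 9-month against 3-month cre (adjusted p = 0.337). Without 9-month cre replicate 3 the last 2 were 0.58 ± 0.27 (adjusted p = 0.199) and -0.18 ± 0.27 (adjusted p = 0.666).

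Rfx2, an RFX factor that acts beside Foxj1, was at -2.20, -2.13 and -2.05 in the controls, at -2.12, -1.96 and -2.11 in 3-month cre lungs and at -1.91, -1.48 and -2.49 in 9-month cre lungs. The 9-month arrays held both the highest and the lowest of the 9 values. Its fold changes against the controls were 0.07 ± 0.22 in 3-month lungs (adjusted p = 0.899) and 0.17 ± 0.22 in 9-month lungs (adjusted p = 0.656), or 0.43 ± 0.15 (adjusted p = 0.113) there without replicate 3.

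Rfx3, which also serves non-motile cilia, was at 0.33, 0.38 and 0.36 in the controls, at 0.49, 0.42 and 0.39 in 3-month cre lungs and at 0.43, 0.55 and 0.07 in 9-month cre lungs. Its 3-month values lay just above the controls, with a difference of 0.08 ± 0.13 (adjusted p = 0.791), and at 9 months the difference was -0.0077 ± 0.13 (adjusted p = 0.975), or 0.13 ± 0.10 (adjusted p = 0.394) without replicate 3. The sign of the difference varied between its 2 probes in all 3 comparisons.

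Mcidas, which encodes multicilin and starts the multiciliated programme upstream of Foxj1, was at 4.68, 4.40 and 3.99 in the controls, at 3.76, 4.54 and 4.72 in 3-month cre lungs and at 5.14, 5.09 and 4.28 in 9-month cre lungs. The 3 groups overlapped. The difference from the controls was -0.02 ± 0.32 in 3-month lungs (adjusted p = 0.983) and 0.48 ± 0.32 in 9-month lungs (adjusted p = 0.364), or 0.76 ± 0.31 (adjusted p = 0.16) without 9-month replicate 3. Its 2 probes differed in sign in every comparison. The other probe was far dimmer, between -5.25 and -3.47, and well above background on 8 of the 9 arrays. Which probe reads the Mcidas transcript better was not tested.

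Of the 12 listed dynein chains 10 were measured and 0 were called. For 9-month cre against control 8 were above 0 and 2 below, with a median of 0.19, and without 9-month replicate 3 the median was 0.53 with 9 above 0. The outer arm heavy chain Dnah5 had the lowest fold change of all members against the controls at 9 months. It was at 0.83, 1.14 and 1.50 in the controls, at 1.87, 1.63 and 1.45 in 3-month cre lungs and at 1.10, 0.74 and 0.26 in 9-month cre lungs. All 9-month cre values lay below all 3-month values, and the controls overlapped both groups. The difference between 9 and 3 months was -0.95 ± 0.25 (adjusted p = 0.059), the closest to the threshold of any member, and it passed with normexp background correction (-0.95 ± 0.23, adjusted p = 0.0456). Against the controls it was 0.49 ± 0.25 in 3-month lungs (adjusted p = 0.319) and -0.46 ± 0.25 in 9-month lungs (adjusted p = 0.262). Without 9-month replicate 3 the difference was -0.73 ± 0.22 (adjusted p = 0.0835) from the 3-month lungs and -0.23 ± 0.22 (adjusted p = 0.518) from the controls.

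Dnah2 and Dnah10, heavy chains of inner arms, had their highest values in the 9-month group. Dnah2 was at 0.94, 1.08 and 0.28 in the controls, at 0.69, 0.98 and 1.02 in 3-month cre lungs and at 1.93, 1.76 and 0.84 in 9-month cre lungs. Dnah10 was at 1.29, 1.38 and 0.91 in the controls, at 1.35, 1.33 and 1.45 in 3-month cre lungs and at 2.22, 2.01 and 0.96 in 9-month cre lungs. For both genes, 9-month replicates 1 and 2 were the highest of the 9 arrays and replicate 3 lay within the control range. Against the controls at 9 months, Dnah2 differed by 0.74 ± 0.31 (SE; adjusted p = 0.166) and Dnah10 by 0.54 ± 0.30 (adjusted p = 0.277). Without replicate 3 the differences were 1.08 ± 0.24 (adjusted p = 0.0442) and 0.92 ± 0.16 (adjusted p = 0.0274).

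Dnah1, another inner arm heavy chain, had a dim probe with a single high array. It was at -4.84, -4.61 and -5.20 in the controls, at -4.45, -4.34 and -2.55 in 3-month cre lungs and at -4.44, -4.87 and -5.17 in 9-month cre lungs. Replicate 3 of the 3-month group lay far above the other 8 arrays. With it the difference of 3-month cre from the controls was 1.10 ± 0.47 (SE; adjusted p = 0.258), and without it 0.49 ± 0.25 (adjusted p = 0.413). The difference between 9 and 3 months was -1.04 ± 0.47 (adjusted p = 0.186), in which its 2 probes differed in sign. At 9 months the difference from the controls was 0.06 ± 0.47 (adjusted p = 0.946), or 0.23 ± 0.54 (adjusted p = 0.805) without 9-month replicate 3.

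Dnai1, an intermediate chain of the outer arm, was at 0.27, 0.58 and 0.38 in the controls, at 0.24, 0.54 and 0.36 in 3-month cre lungs and at 0.88, 1.10 and 0.07 in 9-month cre lungs. Its 3-month and control values were alike in range, and the 9-month arrays lay on both sides of them. The differences from the controls were -0.03 ± 0.25 in 3-month lungs (adjusted p = 0.964) and 0.27 ± 0.25 in 9-month lungs (adjusted p = 0.494), or 0.58 ± 0.14 (adjusted p = 0.0571) there without replicate 3. The other measured chains, Dnah6, Dnah9, Dnah11, Dnai2 and Dynlrb2, lay between -0.11 and 0.25 at 9 months and between -0.02 and 0.37 at 3 months against the controls, with Dnai2, the partner of Dnai1, lowest at 9 months and Dynlrb2 highest at both times. These 5 lay between 0.22 and 0.53 at 9 months without replicate 3. Dynlrb2 was at 3.92, 4.02 and 3.89 in the controls, at 4.32, 4.44 and 4.17 in 3-month cre lungs and at 4.50, 4.45 and 3.62 in 9-month cre lungs, so that 5 of the 6 cre arrays lay above all controls.

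Of the 3 factors that assemble dynein arms in the cytoplasm 0 were called. Dnaaf3 was at 0.51, 0.88 and 0.52 in the controls, at 1.18, 1.25 and 1.17 in 3-month cre lungs and at 1.62, 1.13 and 0.71 in 9-month cre lungs. The 3-month arrays were above every control, and at 9 months replicate 3 lay within the control range. The difference from the controls was 0.57 ± 0.22 in 3-month lungs (adjusted p = 0.217) and 0.52 ± 0.22 in 9-month lungs (adjusted p = 0.168), or 0.74 ± 0.18 (adjusted p = 0.0529) there without replicate 3.

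Zmynd10 was at 0.28, 0.63 and 0.32 in the controls, at 0.47, 0.67 and 0.19 in 3-month cre lungs and at 1.25, 1.11 and 0.14 in 9-month cre lungs. Its 9-month replicates 1 and 2 were the highest of the 9 arrays and replicate 3 the lowest. The difference from the controls was 0.04 ± 0.28 in 3-month lungs (adjusted p = 0.961) and 0.43 ± 0.28 in 9-month lungs (adjusted p = 0.355), or 0.77 ± 0.17 (adjusted p = 0.0456) without replicate 3. Dnaaf1 differed from the controls by 0.12 ± 0.14 at 3 months and by -0.0077 ± 0.14 at 9 months, or by 0.095 ± 0.13 without 9-month replicate 3.

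Ccdc39, which with Ccdc40 forms the ruler that spaces the arms, was at -0.91, -0.66 and -1.06 in the controls, at -0.87, -1.06 and -1.18 in 3-month cre lungs and at -0.38, -0.46 and -1.46 in 9-month cre lungs. Its 3-month values were among the few that leaned below the controls, by -0.15 ± 0.27 (SE; adjusted p = 0.793), and the 9-month difference was 0.11 ± 0.27 (adjusted p = 0.811), or 0.46 ± 0.15 (adjusted p = 0.105) without replicate 3. Drc1, of the nexin link, differed by 0.23 ± 0.29 at 3 months and 0.26 ± 0.29 at 9 months, or 0.63 ± 0.15 without 9-month replicate 3.

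Of the 7 measured radial spoke and central pair genes 0 were called. Rsph4a, of the spoke head, was at -0.19, 0.17 and 0.39 in the controls, at 0.98, 0.65 and 0.31 in 3-month cre lungs and at 0.05, 0.09 and -0.89 in 9-month cre lungs. As for Dnah5, all 9-month cre values lay below all 3-month values. The difference between 9 and 3 months was -0.90 ± 0.30 (adjusted p = 0.0957), and against the controls it was 0.52 ± 0.30 in 3-month lungs (adjusted p = 0.373) and -0.38 ± 0.30 in 9-month lungs (adjusted p = 0.433). Without 9-month replicate 3 it was -0.58 ± 0.23 (adjusted p = 0.136) from the 3-month lungs and -0.056 ± 0.23 (adjusted p = 0.894) from the controls. Rsph1, also of the spoke head, differed from the controls by 0.23 ± 0.24 at 9 months, or 0.52 ± 0.16 without replicate 3, and by 0.0014 ± 0.24 between 9 and 3 months. The 2 probes of Rsph9, the third such gene, differed in sign in both comparisons, with 0.40 ± 0.23 and -0.21 ± 0.22 against the controls at 9 months and 0.05 ± 0.23 and -0.78 ± 0.22 between 9 and 3 months.

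Spag17, a large central pair protein, was at -0.26, -0.34 and -0.67 in the controls, at -0.54, -0.53 and -0.76 in 3-month cre lungs and at 0.043, 0.0014 and -1.07 in 9-month cre lungs. It had the lowest 3-month difference from the controls of all members, -0.19 ± 0.28 (SE; adjusted p = 0.758). Between 9 and 3 months it differed by 0.27 ± 0.28 (adjusted p = 0.571), and by 0.63 ± 0.15 (adjusted p = 0.0495) without 9-month replicate 3. The central pair genes Hydin and Spag16 and the ciliary adenylate kinase Ak7 were above the controls on every 3-month array, by 0.53 ± 0.25, 0.48 ± 0.26 and 0.74 ± 0.21. For Hydin this holds for the probe used, and its other probe gave -0.37 ± 0.23 at 3 months. Ak7 had the lowest adjusted p of the members in that comparison (0.133).

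Of the 8 tektins and other axonemal proteins 0 were called. The tektins Tekt1, Tekt2 and Tekt4 line the doublets, and Cfap52, Cfap53, Cfap126, Ccdc113 and Ccdc153 are further axonemal or basal body proteins. All 8 were above 0 in both comparisons with the controls, with medians of 0.35 at 9 months and 0.41 at 3 months, and 5 of 8 were above every control on every 3-month array, where 19.6% of all genes were. Their median at 9 months was 0.67 without replicate 3. Ccdc153 was at 3.75, 3.90 and 3.77 in the controls, at 4.37, 4.55 and 4.27 in 3-month cre lungs and at 4.60, 4.45 and 3.67 in 9-month cre lungs. Cfap126 was at 3.30, 3.31 and 3.05 in the controls, at 3.83, 3.91 and 3.74 in 3-month cre lungs and at 3.83, 3.82 and 3.05 in 9-month cre lungs. For both genes 5 of the 6 cre arrays lay above all controls, while 9-month replicate 3 was the lowest of the 9 arrays for Ccdc153 and level with the lowest control for Cfap126. Ccdc113 was at 2.10, 2.21 and 2.03 in the controls, at 2.68, 2.57 and 2.29 in 3-month cre lungs and at 2.73, 2.84 and 1.83 in 9-month cre lungs. Cfap53 was at 0.22, 0.62 and 0.13, at 0.86, 0.70 and 0.66 and at 1.41, 0.94 and 0.14 in the same groups, and the 5 highest of its 9 arrays were again cre arrays. Tekt4 was at 0.88, 1.13 and 0.98 in the controls, at 1.14, 1.33 and 1.07 in 3-month cre lungs and at 1.63, 1.70 and 0.71 in 9-month cre lungs, with its 3-month and control values overlapping. Cfap52 was at 0.82, 1.02 and 1.26 in the controls, at 1.70, 1.77 and 1.44 in 3-month cre lungs and at 1.67, 1.13 and 0.68 in 9-month cre lungs, so that its 3-month values lay above all controls. A further probe of Cfap52, not the one used for the gene, was called lower at 9 than at 3 months when each probe was tested alone, by -1.84 ± 0.34 (SE; adjusted p = 0.0324), where the probe used gave -0.48 ± 0.24 (adjusted p = 0.234).

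**Figure D2:**
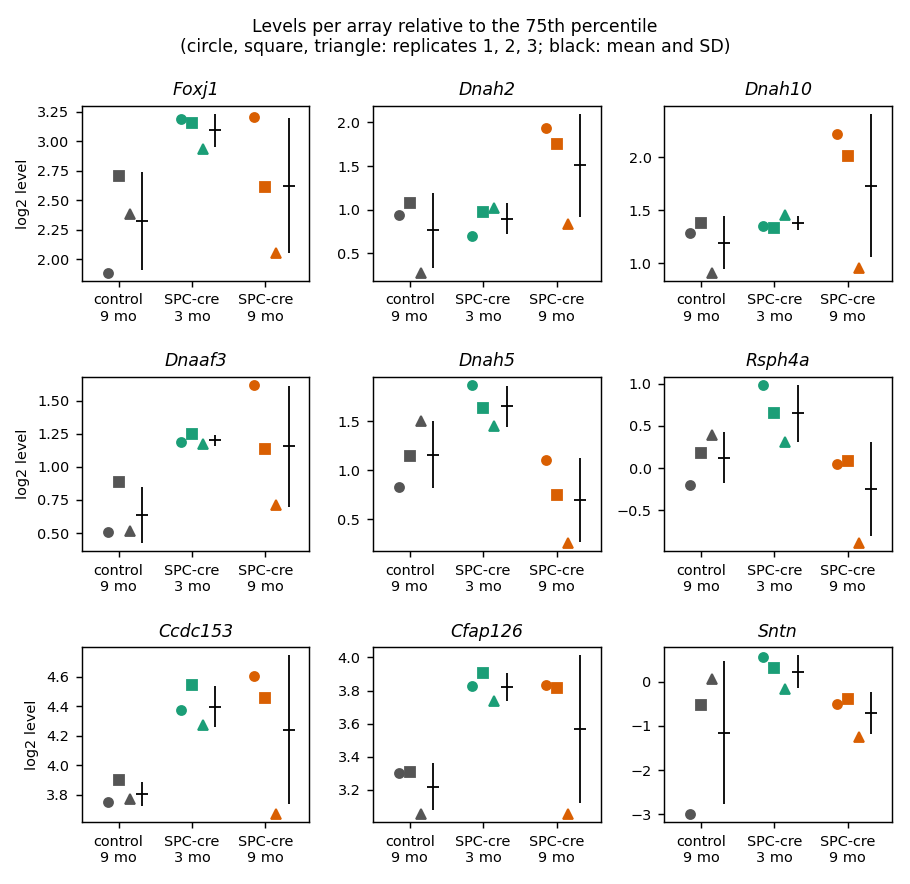
Log2 level relative to the array's 75th percentile in each lung for 9 members, with replicates 1, 2 and 3 as circle, square and triangle and the group mean and SD in black (n = 3). In Foxj1, Dnaaf3, Ccdc153 and Cfap126 the 3-month cre arrays lie above all controls, in Dnah5 and Rsph4a all 9-month arrays lie below all 3-month arrays, and the triangle of the 9-month group is the lowest of its group in every panel.

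Of the markers of the ciliated cell itself, Tppp3, a tubulin-binding protein of these cells, differed least from the controls at 3 months. It was at 6.09, 6.17 and 5.96 in the controls, at 6.10, 6.27 and 6.13 in 3-month cre lungs and at 6.29, 6.01 and 5.36 in 9-month cre lungs. The groups overlapped, with differences from the controls of 0.09 ± 0.22 in 3-month lungs (SE; adjusted p = 0.852) and -0.19 ± 0.22 in 9-month lungs (adjusted p = 0.592), or 0.076 ± 0.13 (adjusted p = 0.725) there without replicate 3.

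Sntn, which encodes sentan of the ciliary tip, was at -3.00, -0.52 and 0.07 in the controls, at 0.55, 0.31 and -0.17 in 3-month cre lungs and at -0.51, -0.38 and -1.26 in 9-month cre lungs. A low value in control replicate 1 gave the widest spread of any member in the controls (SD 1.63). The difference at 3 months was 1.38 ± 0.70 (SE; adjusted p = 0.322) with that array and 0.46 ± 0.33 (adjusted p = 0.602) without it. Against the controls at 9 months the difference was 0.43 ± 0.70 (adjusted p = 0.711) with it and -0.49 ± 0.33 (adjusted p = 0.393) without it. Between 9 and 3 months Sntn differed by -0.95 ± 0.70 (adjusted p = 0.403). From the controls it differed by 0.71 ± 0.80 (adjusted p = 0.584) without 9-month replicate 3. Cdhr3, a cadherin of ciliated cells, differed from the controls by 0.39 ± 0.25 at 3 months and 0.25 ± 0.25 at 9 months, or 0.57 ± 0.13 without 9-month replicate 3. Another of its 3 probes had the opposite sign at 9 months, with -0.59 ± 0.36.

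The late group varied more than the others for these genes. The median SD of the 37 members was 0.53 among the 9-month cre arrays, 0.16 among the 3-month cre arrays and 0.21 among the controls, where the medians over all genes were 0.22, 0.15 and 0.16. Each member's level was centred on its mean over the 9 arrays and the members were averaged. That mean was -0.29, -0.02 and -0.23 in the controls, 0.15, 0.21 and 0.07 in 3-month cre lungs and 0.38, 0.27 and -0.54 in 9-month cre lungs. The highest and the lowest lung were thus both 9-month cre lungs.

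**Figure D3:**
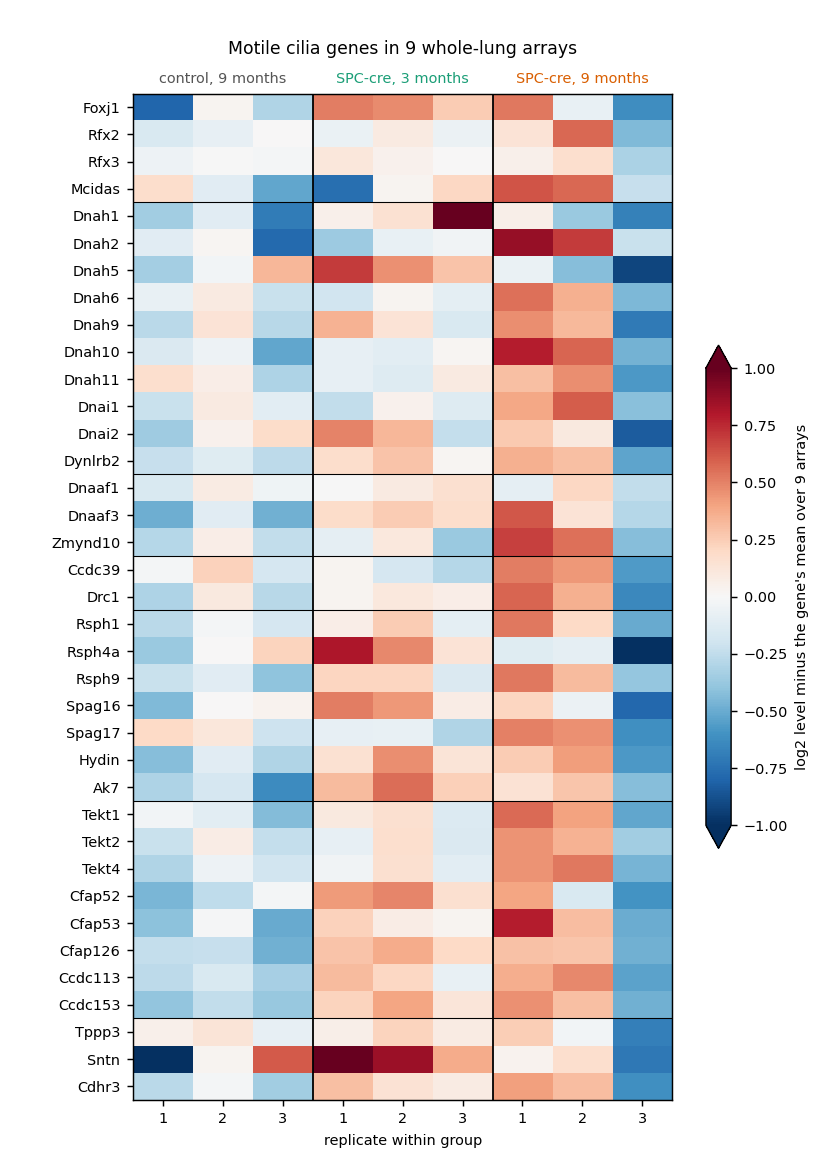
Level of each of the 37 measured members on each of the 9 arrays, as log2 minus the gene's mean over the arrays, in role order with lines between roles and groups and colours capped at 1 either way. The third column of the 9-month cre group is the lowest of that group in all 37 rows, and the first has the highest value of the 9 arrays in 20.

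The members moved together across lungs. Pearson's r of a member with the mean of the other members over the 9 arrays had a median of 0.80 and ranged from 0.32 (Dnah1) to 0.98 (Dynlrb2). It was above 0.5 for 33 of 37 and above 0.9 for 11. The 4 lowest were Dnah1, Mcidas, Dnah5 and Sntn. The arrays share hybridisation and scaling, and 9-month cre replicate 3 weighs on every r, so these are descriptions over 9 arrays. Of 16795 other genes with a value on every array, 111 (0.661%) had an r above 0.9 with the mean of the members. The 10 nearest were Ccdc81, 1700007K13Rik, Bbs5, Cfap45, Gas8, Cfap57, Ccdc13, 1700016K19Rik, 1600029I14Rik and Enkur, with r from 0.97 to 0.98. Of these, Cfap45 was at 1.86, 2.00 and 1.86 in the controls, at 2.42, 2.49 and 2.30 in 3-month cre lungs and at 2.70, 2.53 and 1.60 in 9-month cre lungs.

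Further genes of the cilium were read from lists of their own. Of 73 other axoneme genes above background, among 78 with a probe, 22 (30.1%) had an r above 0.9 with the members. In the tests 0 of the 73 were called in any comparison. At an unadjusted p under 0.05, 7 were higher and 1 lower for 9-month cre against control (14.8% and 12.5% of all genes), 11 and 0 for 3-month cre against control (11.6% and 7.09%), and 2 and 10 for 9-month against 3-month cre (12.7% and 16%). Their medians were 0.21, 0.29 and -0.11 in that order, and 28 of 73 were above every control on every 3-month array, where 19.6% of all genes were. Without 9-month replicate 3, 17 of the 73 rose and 1 fell against the controls at 9 months, with a median of 0.47, where 3.84% of all genes were called higher and 2.74% lower. In that fit 2 rose and 0 fell for 3-month cre against control, where 1.42% of all genes were called higher, and 3 rose and 1 fell for 9-month against 3-month cre, where 2.64% of all genes were called higher and 3.98% lower. Cfap45, a microtubule inner protein, differed from the controls by 0.37 ± 0.26 at 9 months (adjusted p = 0.373), or by 0.71 ± 0.12 (adjusted p = 0.0233) without replicate 3, and by 0.50 ± 0.26 at 3 months (adjusted p = 0.331). Spag6l, the close relative of Spag6, was at 0.74, 0.86 and 0.91 in the controls, at 1.33, 1.39 and 1.16 in 3-month cre lungs and at 1.20, 1.18 and 0.40 in 9-month cre lungs.

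Of 14 measured genes that make basal bodies or the multiciliated state, 0 were called in any comparison. For 9-month cre against control 3.65% of all genes were called higher and 2.81% lower. At 3 months against the controls the shares were 0.368% and 0.0831%, and between 9 and 3 months 1.79% and 3.2%. The list medians were 0.19, 0.36 and -0.30 in that order, with 11, 11 and 4 of 14 above 0. Without 9-month replicate 3 the first and last were 0.31 and -0.29. Deup1, which builds the deuterosome from which basal bodies arise, was at -0.60, -0.65 and -0.49 in the controls, at 0.22, 0.66 and 0.15 in 3-month cre lungs and at 0.35, -0.33 and -0.44 in 9-month cre lungs. Every cre array was above every control, by 0.92 ± 0.22 at 3 months (adjusted p = 0.108). Gmnc, which acts upstream of Mcidas, lay between -3.04 and -1.65 in the controls, between -2.46 and -2.05 in 3-month cre lungs and between -4.17 and -2.41 in 9-month cre lungs.

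Genes of intraflagellar transport and the BBSome, which serve non-motile cilia of all cell types as well, were read from 36 measured genes. Between 3 and 9 months 3.2% of all genes were called lower and 1.79% higher, and of the 36, 2 fell, Dync2li1 by 1.33 ± 0.26 (SE; adjusted p = 0.0364) and Ttc30b by 0.91 ± 0.20 (adjusted p = 0.0442), and 0 rose. Without 9-month replicate 3 the values were -1.36 ± 0.30 (adjusted p = 0.0446) and -0.83 ± 0.22 (adjusted p = 0.0634). The median of the list was -0.30 there, with 29 of 36 below 0, and -0.12 for 9-month cre against control, or -0.15 and 0.014 without that replicate. The difference between this list and the members was not tested. In all, 3 of the 36 had an r above 0.9 with the members.

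Several marker lists of other lung cells were low in replicate 3 of the late group, and others were not. The mean centred level there was -0.65 for 14 club cell genes, -0.74 for 13 general epithelial genes, -0.94 for 12 basal and goblet cell genes, -0.76 for 8 neuroendocrine genes and -0.42 for 9 alveolar type 1 genes, each the lowest of the 9 arrays. For 10 alveolar type 2 genes it was -0.34, against -0.33 in control replicate 2 and -0.29 in 9-month replicate 2. For 10 leukocyte genes it was 0.26, between 0.24 and 0.31 in 9-month replicates 1 and 2. For 12 heart muscle genes it was -0.39, against -1.30 in 3-month replicate 3, the lowest of the 9 arrays. For 4 cartilage genes the level in 9-month replicate 3 was 1.06, the highest of the 9 arrays. Of the 12 listed cartilage genes 8, Acan among them, were not above background. The linear levels of the members summed to between 144 and 277 times the 75th percentile signal in 9-month cre lungs, between 220 and 245 in 3-month cre lungs and between 177 and 207 in the controls. The same sum of club cell genes lay between 986 and 1407, between 1220 and 1336 and between 1186 and 1239 in those groups, and the sum of basal and goblet cell genes between 21.6 and 43.5, between 51.4 and 85.7 and between 54.6 and 85.3. Bright probes weigh most in such sums, as does Tppp3 (mean log2 level 6.04) among the members. A sum is therefore compared only between arrays. The part of these cells in the ciliary result was not tested.

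Single genes of those lists passed the test where no ciliary member did. For 9-month cre against control 3.65% of all genes were called higher and 2.81% lower. At 9 months against the controls Upk3a, of a subset of club cells, fell by 1.93 ± 0.42 (SE; adjusted p = 0.0357). It was the 1 called of 14 club cell genes, of which 5 lay above 0 and 9 below. Without 9-month replicate 3, 8 of the 14 lay above 0 and 6 below, with a median of 0.16. The airway secretory genes Bpifb1 and Tff2 fell by 1.54 ± 0.36 (adjusted p = 0.0454) and 1.34 ± 0.26 (adjusted p = 0.0286). Bpifb1 was at -1.28 ± 0.37 (adjusted p = 0.0817) and no longer called without 9-month replicate 3. The main club cell product Scgb1a1 was not among the called genes. Chgb, of neuroendocrine cells, fell by 0.88 ± 0.20 (adjusted p = 0.0385), and was at -0.75 ± 0.20 (adjusted p = 0.0678) without 9-month replicate 3. It was the 1 called of 8 neuroendocrine genes, of which 3 lay above 0 and 5 below. The leukocyte genes Cd68, Cd52 and Coro1a rose by 1.33 ± 0.24 (adjusted p = 0.0233), 1.03 ± 0.20 (adjusted p = 0.0278) and 0.94 ± 0.19 (adjusted p = 0.0308). They were the 3 called of 10 leukocyte genes, of which 9 lay above 0 and 1 below, at -1.17. Of 10 alveolar type 2 genes, Etv5 was the 1 called and fell by 0.87 ± 0.16 (adjusted p = 0.0232). Of the 10, 4 lay above 0 and 6 below, with Sftpc at 0.34 ± 0.16 (adjusted p = 0.222). Of 12 heart muscle genes, whose source in these whole lungs was not tested, Myh7 fell by 1.55 ± 0.31 (adjusted p = 0.0297). The mean centred level of that list ranged from -1.30 to 1.42 over the 9 arrays. Of the genes named here, Upk3a, Tff2, Cd68, Cd52, Coro1a, Etv5 and Myh7 stayed called without 9-month replicate 3.

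**Figure D4:**
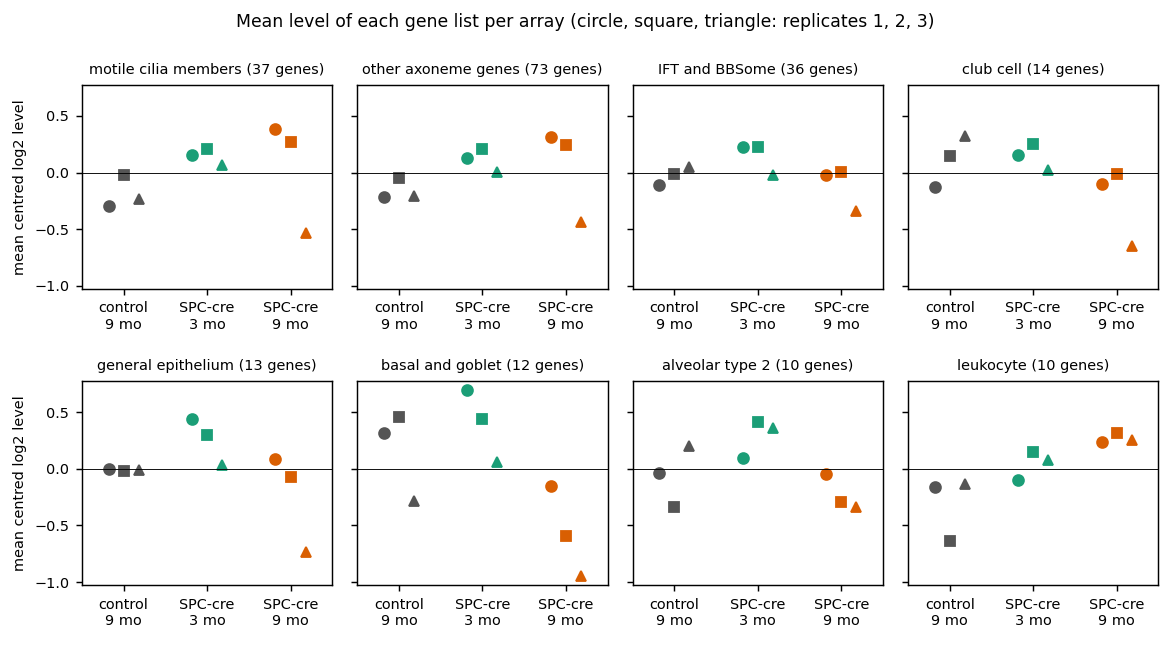
Mean centred log2 level of 8 gene lists in each lung, with replicates 1, 2 and 3 as circle, square and triangle, grouped by control, 3-month cre and 9-month cre. The motile cilia members and the other axoneme genes share 1 pattern, with the 9-month triangle lowest (-0.54 for the members) and the 9-month circle highest (0.38). The leukocyte list is higher than every control in all 3 lungs of the 3-month group and, further up, in all 3 of the 9-month group.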

How the data were processed

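Whole-lung RNA of 9 mice was measured on 9 single-colour Agilent arrays, 3 per group, and the labels call the replicates biological. Per the file headers, the deposited scanner values are spot intensity from Agilent Feature Extraction 10.7.3.1, with a processed signal corrected for background within each array. The deposited table of 1 intensity per probe, brought by the authors to nearly 1 distribution, served as an alternative. The sources used here name no tool for that step. Log2 processed intensity was taken relative to the array's 75th percentile over non-control probes. Irregular spots were dropped, and a probe was kept when well above background on all arrays of at least 1 group. Of 56605 probes 32994 were named through RefSeq transcripts, and members had 56 probes. A gene was read through its brightest probe by the mean of all arrays. All 3 groups were fitted in limma 3.58.1 (R 4.3.3, 6 residual degrees of freedom), two-sided, adjusted by the Benjamini-Hochberg method over 16843 genes, and called at an adjusted p under 0.05. The fit was tested on simulated data.

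The members, gene lists, tests and motifs were chosen with earlier results of these data known. Values in every array are given for Foxj1, Rfx2, Rfx3 and Mcidas, for members called with all arrays (a count of 0) and for the 3 highest and 3 lowest fold changes of each comparison. Ccdc153, Cfap126, Ccdc113, Cfap53, Cfap52, Tekt4, Dynlrb2, Deup1, Gmnc, Spag6l, Cfap45 and the other members with values were added after their values were seen. From other lists up to 4 called genes were named. Gene position on the array design and probe sites were not used. The number of arrays limits the precision.

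Alternatives were normexp background correction of the median spot signal (offset 50), quantile and median scaling, the deposited values, no filter or a filter on all 9 arrays, the mean over a gene's probes, slide, sex or replicate number as a term, only the groups compared, and leaving out each array. Scaling over all spots, each probe on its own and the counts of groups that do not overlap without 1 array and the other lists without 9-month cre replicate 3 were added after the data were seen.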

Additional observations from a re-analysis of the deposited data

How the results depend on the processing

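The count of called members was 0 in each comparison under the other settings, with these exceptions. For 9-month against 3-month cre, 1 member was called with normexp background correction (Dnah5), 1 with the mean over a gene's probes (Cfap52) and 1 with every probe tested on its own (Cfap52, over 52 probes). Leaving out each array gave 0 to 9 called members for 9-month cre against control, 0 to 2 for 3-month cre against control and 0 to 2 for 9-month against 3-month cre, the highest each time without 9-month cre replicate 3. The median log2 fold change of 3-month cre against control was 0.38 with the slide as a block and within slide 1 and 0.52 with sex as a term, and 0.21 to 0.38 when each array was left out. That of 9-month cre against control was 0.093 to 0.57 over the arrays left out, and that of 9-month against 3-month cre -0.21 to 0.27, its sign turning without 9-month cre replicate 3. The slide and sex terms left 0 of all genes called in the comparisons with the control, so a count of 0 members there says nothing about stability. With a replicate block the medians were 0.26, 0.24 and -0.047 and 0 members were called. The replicate numbers do not pair the lungs: same-numbered arrays had correlations of their deviations from -0.24 to 0.045. The block left 317, 42 and 6 genes called of 1087, 76 and 840. Of 1040 values of named members under other settings, 49 took the other sign and 0 of those were called. The cause was not tested. For 9-month cre against control these were, with normexp, Rfx3 (0.0034) and Dnah1 (-0.039), Dnah1 with quantile normalization (-0.076) and the deposited values (-0.060), Rfx3 with the mean over probes (0.14), Rfx3 (0.082), Mcidas (-0.40), Dnah1 (-0.94) and Rsph4a (0.13) with the slide block, and Rfx3 (0.028), Dnah1 (-0.028) and Tppp3 (0.063) with sex. For 3-month cre against control they were Tppp3 with quantile normalization (-0.15) and the deposited values (-0.12), Mcidas with the mean over probes (0.26), Dnah2 (-0.071) and Ccdc39 (0.013) with the slide block and within slide 1, and Mcidas (0.23), Dnai1 (0.15), Ccdc39 (0.025) and Spag17 (0.045) with sex. For 9-month against 3-month cre they were Rfx3 (0.14) and Mcidas (-0.094) with the mean over probes. Over the arrays left out, values for 9-month cre against control ran from -0.077 to 0.43 for Rfx2, -0.11 to 0.13 for Rfx3, -0.13 to 0.23 for Dnah1, -0.079 to 0.46 for Ccdc39, -0.11 to 0.45 for Spag17, -0.39 to 0.076 for Tppp3 and -0.49 to 1.04 for Sntn. For 3-month cre against control they ran from -0.21 to 0.27 for Mcidas, -0.11 to 0.29 for Dnah2, -0.11 to 0.055 for Dnai1 and -0.077 to 0.16 for Zmynd10, and for 9-month against 3-month cre from -0.14 to 0.37 for Rfx2, -0.18 to 0.058 for Rfx3 and -0.28 to 0.17 for Dnaaf3. Where an array is left out, the group of 2 is assumed to vary like the others. Spag6, above background nowhere, was kept out of the values without the filter on dim probes as well.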
